A study of Danio rerio with 6 samples.

Results

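The extracellular matrix genes described here are the rows of the table whose symbol begins as a collagen chain (col, a type number, a and a chain number) or a laminin chain (lama, lamb or lamc and a number), together with hspg2, tnc, fn1a, fn1b and vwf. The set was chosen with earlier results of these data known, from a table filtered on low values before deposit. Within that table the symbols alone decided membership. Of the 21860 rows, 64 fit: 44 collagens, 13 laminins, the 5 genes named singly, and 2 rows that are not matrix genes. The last pair, col4a3bpa and col4a3bpb, encode ceramide transfer proteins first named for binding collagen IV, and they are kept in the counts and described apart. RNA came from brain cells of adult zebrafish (9 to 12 months old, strain TLF x AB) sorted for the mpeg1-GFP reporter, a transgene under a macrophage promoter that every group carries and that marks microglia. Compound mutants had the genotype csf1ra-/-;b+/-, that is csf1ra-/- with 1 mutant copy of csf1rb added. The labels conflict here, since another field of the same libraries reads as loss of both receptors, and the stated genotype is followed throughout. The second mutant group was csf1ra-/- alone, and control fish were wild type. Each of the 3 groups had 2 libraries, and the labels leave unsaid whether these were different fish, so p-values here measure only the spread between these libraries, which may be technical. The genes csf1ra and csf1rb encode the zebrafish receptors for colony-stimulating factor 1 and interleukin 34, on which microglia depend.

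The extracellular matrix is the protein scaffold outside cells. Collagens are trimers of chains wound into a triple helix: fibrillar types give tissues their strength, while collagen IV forms the sheet of basement membranes together with laminins, which are trimers of an alpha, a beta and a gamma chain, and with perlecan. In brain such basement membranes surround blood vessels and underlie the meninges, and their chains are made mainly by endothelial cells, mural cells, fibroblasts and astroglia rather than by microglia. Cartilage, bone, skin and muscle are the classical sources of many other collagens.

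Values are in units of signal, read numbers divided by a library size that the authors rescaled (headed CPM in the table), and 1 read was worth 0.0809 to 0.157 units. The libraries held 15011963 and 13543998 reads in compound mutants, 8028386 and 7874979 in csf1ra-/- and 4241988 and 7830510 in control, so the controls were the shallower group. Control replicate 1 stood apart in scale: its size as used by the authors was 1.73 times its total reads, against 0.802 to 1.07 in the other 5 libraries. The number of rows with at least 1 read was 18383 and 18047 in compound mutants, 20971 and 20119 in csf1ra-/- and 21452 and 20723 in control. The targeted receptor gene csf1ra stood at 18.5 and 7.73 in compound mutants, 42.6 and 24.3 in csf1ra-/- and 37.7 and 67.9 in control, and csf1rb at 329 and 173 in compound mutants, 1432 and 783 in csf1ra-/- and 901 and 1356 in control. Both were lower in compound mutants than in control in every library, neither passed the test described below, and the labels do not say whether the alleles remove the transcript. Microglial and macrophage markers were abundant in every library: all 22 listed had reads in every group, with a summed signal of 67010.4 to 83564 in compound mutants, 32736 to 43856 in csf1ra-/- and 36136 to 72298 in control.

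Matrix genes were lowest in compound mutants, intermediate in csf1ra-/- and highest in control. The median matrix gene stood at 0.243 and 0.0921 units in compound mutants, at 2.98 and 3.29 in csf1ra-/-, and at 7.75 and 4.45 in control. The median over all rows of the table moved much less, with 4.13 and 4.05 units in compound mutants, 4.68 and 4.39 in csf1ra-/- and 5.58 and 4.69 in control. In sum, the 64 rows had 90.2 and 70.2 units in compound mutants, 309 and 301 in csf1ra-/- and 703 and 617 in control, without overlap between any of the 3 groups. Counted as reads per 10000 reads of the library, which does not use the authors' scaling, they made up 0.743 and 0.563 in compound mutants, 3.29 and 2.43 in csf1ra-/- and 12.2 and 6.38 in control. The order of the groups was thus the same on both scales, while the 2 controls lay further apart on the second. In bulk RNA, fewer cells of a matrix-making type and less matrix RNA per cell cannot be told apart.

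**Figure D1:**
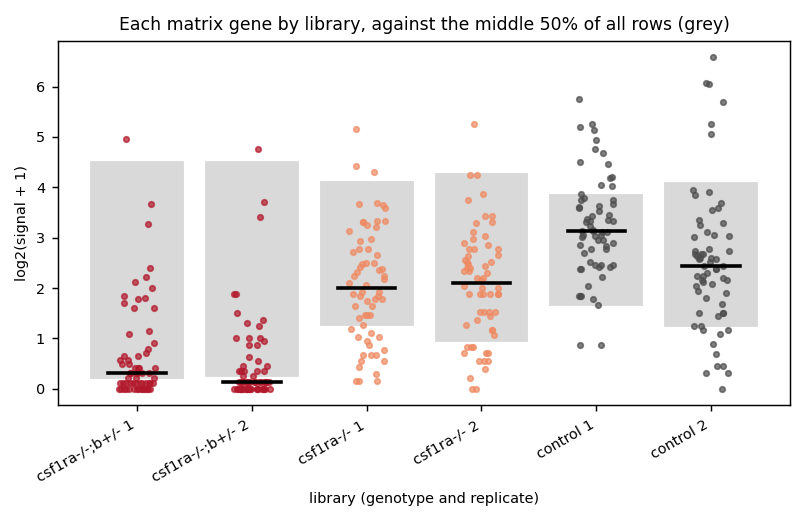
Each point is 1 of the 64 matrix genes in 1 library, as log2(signal + 1), with libraries on the horizontal axis by genotype and replicate. Black bars are the medians of the matrix genes and grey boxes span the middle 50% of all rows. The matrix medians lie at the lower edge of the grey box in compound mutants and well inside it in csf1ra-/- and control.

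A mean signal above 5 in at least 1 group was reached by 48 of the 64 genes (75%, against 66.9% of all rows). In compound mutants 3 genes were above 5 (4.69% of them, against 49.2% of all rows), in csf1ra-/- 24 were (37.5%, against 49.55% of all rows) and in control 43 were (67.2%, against 52.6% of all rows). The genes just outside the threshold were lamb2, lama5 and col5a2b, with a highest group mean of 4.84, 4.72 and 4.43, and those just inside were col1a1a, col27a1a and col6a6, with 5.10, 5.11 and 5.12. In compound mutants 15 and 23 of the genes had 0 reads, against 0 and 2 in csf1ra-/- and 0 and 1 in control, although the compound mutant libraries were the deepest. Rows at 0 reads were more frequent there over the whole table too. Of all 21860 rows, 3477 and 3813 had 0 reads in compound mutants, 889 and 1741 in csf1ra-/- and 408 and 1137 in control. In both compound mutant libraries together 9 genes had 0 reads (8.42% of all rows did). In both libraries of csf1ra-/- and of control 0 genes did (1.14% and 0.439% of all rows). The middle 50% of the genes lay between 4.69 and 12.4 units in control replicate 1 and between 2.13 and 7.38 in control replicate 2.

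The direction was shared by nearly the whole set. Both compound mutant libraries lay below both controls in 59 of 64 genes, a separation found in 34.2% of all rows, and above both controls in 1 gene (24.7% of all rows). The exceptions were lamb4, which was higher, and col1a1a, col1a2, col19a1 and lamb2l, in which the groups overlapped. Both csf1ra-/- libraries lay below both controls in 28 genes (20.8% of all rows) and above both in 1, col17a1b (18.2% of all rows). Both compound mutant libraries lay below both csf1ra-/- libraries in 53 genes (29.1% of all rows) and above both in 0 (19.6% of all rows). The group means ran from lowest in compound mutants through csf1ra-/- to highest in control in 48 genes, an order held by 28.4% of all rows. The highest group mean was that of compound mutants in 2 genes, of csf1ra-/- in 12 and of control in 50, against 34.9%, 27.2% and 37.9% of all rows. These counts share libraries, since the controls enter the first pair of comparisons and the mutants the last. The counts of 59, 28, 48 and 50 include col15a1b, col1a1b, col27a1b and lamc3, which reached a signal of 1 only in control libraries. For these genes, lower values in mutants than in control were fixed in advance and support nothing further. Control replicate 1 exceeded control replicate 2 in 46 of the 64 genes, against 51.4% of all rows.

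**Figure D2:**
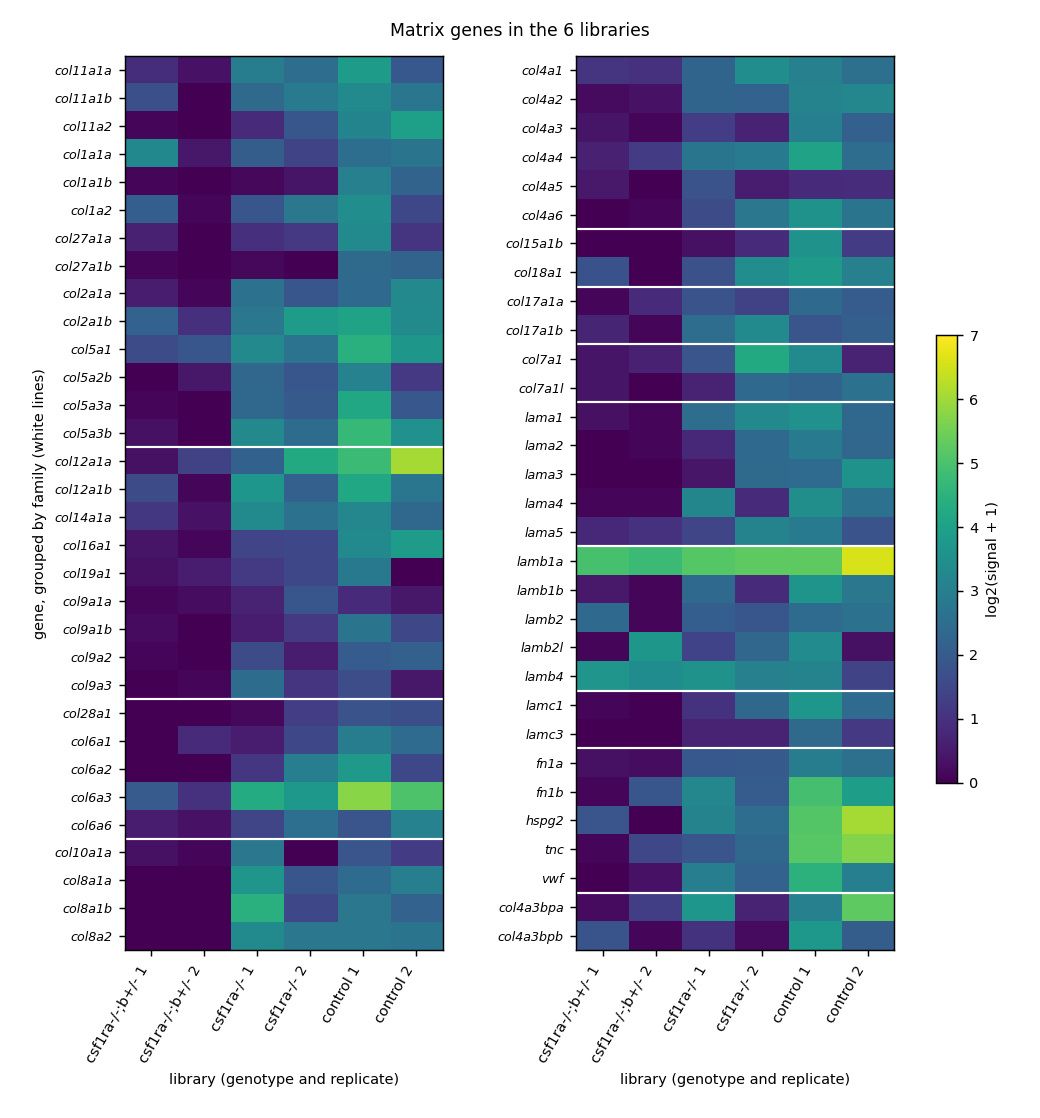
Signal of 63 of the 64 genes in the 6 libraries, as log2(signal + 1) from dark (0) to yellow (7), with rows grouped by family between white lines. The compound mutant columns are dark in nearly every row other than lamb1a and lamb4, while hspg2, tnc, col6a3 and col12a1a are brightest in the control columns.

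Single genes were tested with limma on log2(signal + 1), with p-values adjusted by Benjamini and Hochberg over all 21316 rows that reached a signal of 1 in at least 2 libraries. That filter passed 62 of the 64 genes and left out col4a5 and col9a1a. In 4 of the 62 (col15a1b, col1a1b, col27a1b and lamc3) only control libraries carried the gene past it, so these had to differ, and their differences support nothing further. In compound mutants against control 3 genes fell and 0 rose by limma, where 0.305% of all rows tested fell and 0.793% rose. At an unadjusted p under 0.05, 45 of the 62 were lower and 0 higher, against 15.6% and 11.9% of rows. Without the 4 genes that only control carried past the filter, 41 of 58 were lower, a count added after the data were seen. Of the 62, only 22 had a compound mutant library at a signal of 1 or more. The others passed through control, csf1ra-/- or both. Leaving out 4 genes thus does not free the counts for compound mutants, here or against csf1ra-/-, from the filter. The median log2 difference of the 62 was -2.32, and -2.49 with the 9 genes at 0 reads in compound mutants placed at their bound, while the median of all rows tested was -0.16. Fitted differences were below 0 in 60 of the 62, and in 56 of the 58 without those 4, against 53.6% of rows. The median of the 58 was -2.32, and -2.41 with bounds. Among the 18003 rows whose mean signal lay in the range of the matrix genes, the median was -0.33, 57.3% were below 0, 0.272% fell and 0.361% rose. DESeq2 on the reads called 35 lower (32 of them among the 58) and 0 higher, against 11.5% and 5.44% of rows. The 3 limma calls, hspg2, tnc and col6a3, were narrow. None passed with 0.25 in place of the 1 added to the signal, or with only the 4 libraries compared. How many of all rows passed in those fits is not given here. With 1 library left out, the log2 difference ranged from -5.59 to -3.75 for hspg2, -5.33 to -3.94 for tnc and -4.39 to -3.41 for col6a3.

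The gene hspg2 (ENSDARG00000076564) encodes perlecan, the large heparan sulfate proteoglycan of basement membranes. It stood at 2.59 and 0 in compound mutants, 7.72 and 4.70 in csf1ra-/- and 34.004 and 65.5 in control. The controls were far above all 4 mutant libraries, and the compound mutant value rests on 32 and 0 reads, all of them in replicate 1. Its mean was 1.29 ± 1.83 in compound mutants and 49.7 ± 22.2 in control (SD, n = 2 libraries each), and it fell, with a log2 difference of -4.67 ± 0.89 (SE, limma adjusted p = 0.0444). By edgeR's quasi-likelihood test on the reads its adjusted p was 0.0703, so that test did not call it.

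The gene tnc (ENSDARG00000021948) encodes tenascin-C, a matrix glycoprotein of developing and injured tissue that astroglia can make in mammals. It stood at 0.0809 and 1.84 in compound mutants, 2.57 and 4.08 in csf1ra-/- and 35.5 and 51.0 in control. Each of the 4 mutant libraries was below 5 units and each control above 30. In compound mutants it averaged 0.961 ± 1.24 against 43.3 ± 11.0 in control (SD, n = 2 each), and it fell by 4.64 ± 0.87 on the log2 scale (SE, limma adjusted p = 0.0443, edgeR adjusted p = 0.0463). In csf1ra-/- against control the log2 difference was -3.35 ± 0.87, the lowest of the 62 tested matrix genes in that comparison, with a limma adjusted p of 0.310. Between compound mutants and csf1ra-/- the difference was -1.28 ± 0.87 (SE, limma adjusted p = 0.536), which did not pass.

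The gene col6a3 (ENSDARG00000077139) encodes the largest chain of collagen VI, which forms beaded microfilaments around cells. It stood at 2.99 and 1.01 in compound mutants, 18.8 and 12.4 in csf1ra-/- and 52.9 and 32.2 in control. No 2 groups overlapped, and the csf1ra-/- libraries lay in the middle. The log2 difference was -3.90 ± 0.75 for compound mutants against control (SE, n = 2 each, limma adjusted p = 0.0450, edgeR adjusted p = 0.0345), -1.38 ± 0.75 for csf1ra-/- against control (limma adjusted p = 0.562) and -2.52 ± 0.75 for compound mutants against csf1ra-/- (limma adjusted p = 0.270). Of the named genes outside the 3 limma calls, edgeR called col12a1a and col5a3b too, lower in compound mutants than in control. In all edgeR called 4 matrix genes lower, against 0.699% of rows, and 0 higher. The authors' deposited table lists hspg2 at a log2 difference of -5.24 (false discovery rate 0.00338), tnc at -5.48 (false discovery rate 0.00106) and col6a3 at -4.39 (false discovery rate 0.000933). By the authors' deposited table, 34 of the 64 genes were lower in compound mutants than in control at a false discovery rate under 0.05 and 0 higher, where 14.6% and 6.50% of all rows were. The 34 include col15a1b, col1a1b, col27a1b and lamc3, which reached a signal of 1 only in control libraries and support nothing further.

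**Figure D3:**
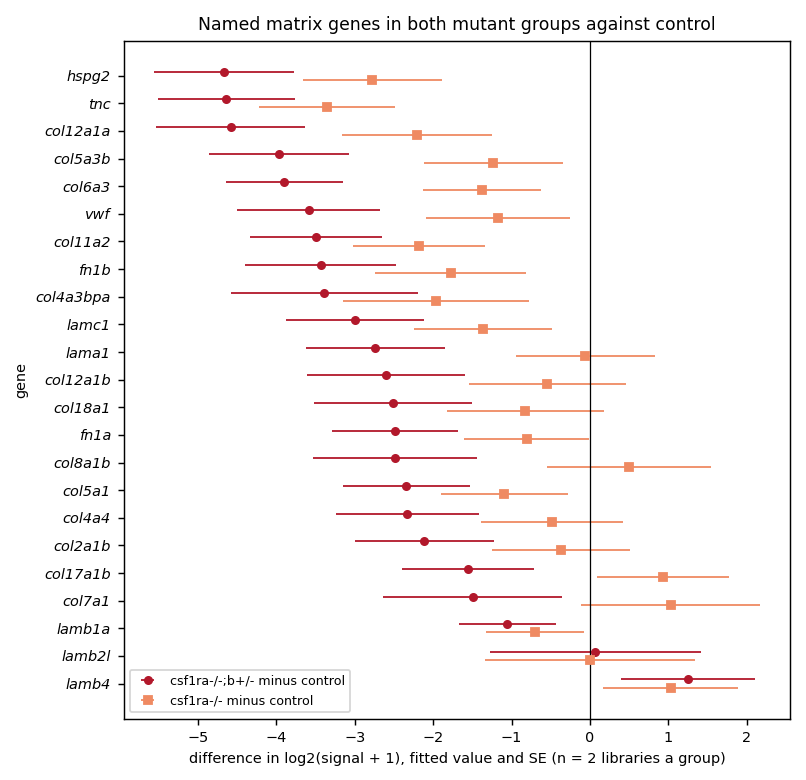
Fitted difference in log2(signal + 1) from control, with its SE (n = 2 libraries a group), for the 23 named genes in csf1ra-/-;b+/- (circles) and csf1ra-/- (squares). The compound mutant value is below 0 for every gene shown other than lamb2l and lamb4; col8a1b had 0 reads in compound mutants, so its value depends on the pseudocount.

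In the fibrillar collagens, which build the fibrils of connective tissue, the 14 genes summed to 22.4 and 4.79 in compound mutants, 55.8 and 54.7 in csf1ra-/- and 156 and 83.4 in control. All 14 had fitted differences below 0 in compound mutants against control (53.6% of all rows tested), with a median of -2.27. In 12 both compound mutant libraries lay below both controls (34.2% of all rows). These include col1a1b and col27a1b, which only control carried past the filter. By limma 0 passed, and by edgeR col5a3b was lower (0.699% of rows were). DESeq2 called col11a1a, col11a2, col1a1b, col2a1a, col5a1, col5a3a and col5a3b lower (11.5% of rows were). The gene col5a1, a chain of the type V collagen that starts fibrils, stood at 2.02 and 2.67 in compound mutants, 8.89 and 5.33 in csf1ra-/- and 20.9 and 12.0 in control. Its relative col5a3b had 0.243 and 0 units in compound mutants, 8.89 and 4.55 in csf1ra-/- and 24.8 and 10.7 in control, a log2 difference of -3.96 ± 0.89 (SE, limma adjusted p = 0.0594, edgeR adjusted p = 0.0466). Both lay in the order compound mutants, csf1ra-/-, control in their group means. The cartilage collagen gene col11a2 stood at 0.0809 and 0 in compound mutants, 0.818 and 2.67 in csf1ra-/- and 7.89 and 14.3 in control, and col2a1b, of the type II collagen of cartilage, at 3.64 and 0.921 in compound mutants, 5.85 and 13.6 in csf1ra-/- and 15.2 and 9.26 in control. For col11a2 the compound mutant value rests on 1 read in all.

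The 2 genes of this family that overlapped between compound mutants and control encode chains of type I collagen, the main collagen of bone, skin and tendon. The gene col1a1a stood at 8.66 and 0.368 in compound mutants, 3.16 and 1.73 in csf1ra-/- and 4.76 and 5.43 in control, so compound mutant replicate 1 was the highest of the 6 libraries and replicate 2 the lowest. The gene col1a2 had the same split in compound mutants, at 3.32 and 0.0921, with 2.69 and 5.80 in csf1ra-/- and 9.79 and 1.85 in control. The duplicate col1a1b lay near 0 in all 4 mutant libraries, at 0.0809 and 0 in compound mutants and 0.117 and 0.314 in csf1ra-/-, against 7.34 and 3.70 in control. Only control libraries carried col1a1b past the filter, so its difference had to arise and supports nothing further. Near-identical duplicates can share short reads, and how such reads were counted is not given in the sources used here.

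**Figure D4:**
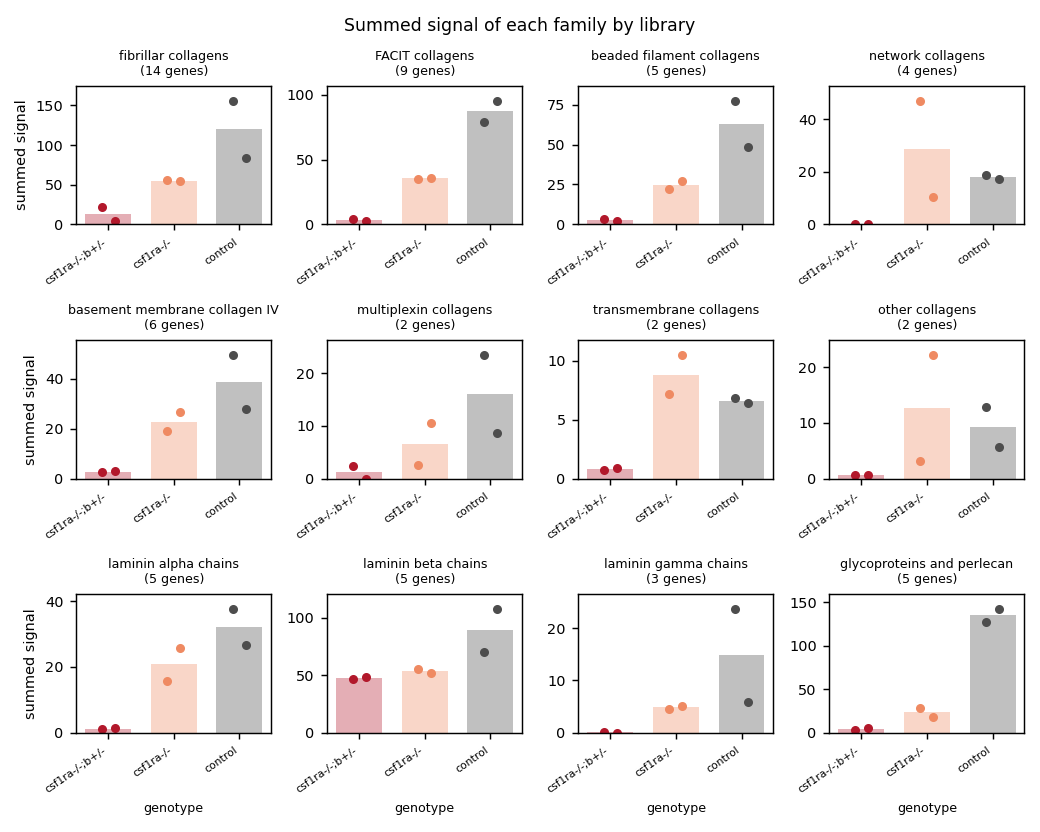
Summed signal of each family by library (points) with the group mean (bars, from 0), in 12 panels with their own vertical scales. Compound mutants are lowest in each panel, and the laminin beta chains keep the largest share of their control level in them.

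Collagens that sit on the surface of fibrils (the FACIT group, 9 genes) summed to 4.37 and 2.76 in compound mutants, 35.2 and 35.9 in csf1ra-/- and 78.8 and 95.5 in control. The gene col12a1a, of type XII collagen, stood at 0.243 and 1.57 in compound mutants, 3.51 and 18.035 in csf1ra-/- and 26.3 and 66.2 in control. Its log2 difference in compound mutants against control was -4.58 ± 0.95 (SE, n = 2 each), with a limma adjusted p of 0.0514 and an edgeR adjusted p of 0.0380. The duplicate col12a1b stood at 2.02 and 0.0921 in compound mutants, 11.8 and 3.45 in csf1ra-/- and 17.1 and 5.68 in control, with a difference of -2.60 that did not pass (limma adjusted p = 0.135). In both duplicates the replicates of csf1ra-/- lay far apart, in opposite order.

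The beaded filament collagens (types VI and XXVIII, 5 genes) summed to 3.48 and 2.12 in compound mutants, 22.3 and 27.4 in csf1ra-/- and 77.5 and 48.4 in control. The members other than col6a3 were under 1 unit in both compound mutant libraries. The gene col6a2, the second chain of collagen VI, had 0 reads in both, with 1.17 and 6.90 units in csf1ra-/- and 12.8 and 1.85 in control, at least 56.6-fold lower in compound mutants than in control. These lower bounds set the mean of the other group against a floor of 3 reads in the 2 libraries together. They cover counting error only, not the spread between replicates, and need not hold for each library.

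The network collagens (types VIII and X, 4 genes) departed from the stepwise order. Type VIII collagen is made by vascular and corneal endothelium. The gene col8a1b stood at 20.6 and 1.88 in csf1ra-/- and 5.85 and 3.58 in control. The gene col8a1a stood at 11.5 and 2.67 in csf1ra-/- and 4.49 and 7.04 in control, and col8a2 at 9.12 and 5.80 in csf1ra-/- and 5.85 and 5.43 in control. The csf1ra-/- mean was above the control mean in each, and csf1ra-/- replicate 1 was the highest of the 6 in each. All 3 had 0 reads in both compound mutant libraries, at least 36.5-fold, 44.6-fold and 43.7-fold lower than control and at least 86.9-fold, 54.7-fold and 57.7-fold lower than csf1ra-/-, in the order named. These bounds use group means, and the csf1ra-/- mean of col8a1b came mostly from replicate 1. By limma none of the 3 passed in any comparison, and for col8a1b the adjusted p was 0.160 against control and 0.313 against csf1ra-/-. By edgeR none passed either. DESeq2 called all 3 lower in compound mutants than in control (11.5% of rows were) and than in csf1ra-/- (4.29% of rows were). For col8a1b its adjusted p was 0.000989 against control and 0.000469 against csf1ra-/-.

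Collagen IV (6 genes), the sheet-forming collagen of basement membranes, summed to 2.59 and 2.85 in compound mutants, 19.1 and 26.5 in csf1ra-/- and 49.6 and 27.9 in control. The chains col4a1 and col4a2, which form its common trimer, stood at 1.13 and 1.01 in compound mutants, 3.74 and 9.72 in csf1ra-/- and 7.34 and 4.94 in control for col4a1, and at 0.162 and 0.276 in compound mutants, 3.74 and 3.61 in csf1ra-/- and 7.75 and 8.52 in control for col4a2. They are neighbours in the GRCz12tu annotation, as are col4a3 and col4a4, and col4a5 and col4a6. The gene col4a4 stood at 0.566 and 1.38 in compound mutants, 5.61 and 6.27 in csf1ra-/- and 15.5 and 4.69 in control, with a difference of -2.33 ± 0.91 in compound mutants against control (SE, limma adjusted p = 0.138). The pair col4a5 and col4a6 differed: col4a6 had 0 and 0.0921 units in compound mutants, 2.1046 and 5.80 in csf1ra-/- and 11.2 and 5.43 in control, while col4a5 was under 1 unit in both controls, at 0.816 and 0.864. The 5 tested chains all had differences below 0 in compound mutants against control (53.6% of all rows tested), with a median of -2.33. By limma 0 passed, while DESeq2 called col4a2, col4a3, col4a4 and col4a6 lower than in control (11.5% of rows were).

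Among the remaining collagens, col18a1, the multiplexin whose tail is released as endostatin, stood at 2.43 and 0 in compound mutants, 2.34 and 9.72 in csf1ra-/- and 12.5 and 7.29 in control. Its compound mutant reads, 30 and 0, all came from replicate 1. The other multiplexin, col15a1b, had 0 reads in compound mutants and 11.0 and 1.36 units in control. Only control libraries carried col15a1b past the filter, so this difference supports nothing further. The transmembrane collagen gene col17a1b, of the epithelial anchoring protein collagen XVII, had 0.647 and 0.0921 units in compound mutants, 4.68 and 8.94 in csf1ra-/- and 2.58 and 3.33 in control, so csf1ra-/- was the highest group. Collagen VII of the skin's anchoring fibrils (col7a1) stood at 0.324 and 0.552 in compound mutants, 2.57 and 18.035 in csf1ra-/- and 9.11 and 0.617 in control, with its largest value in csf1ra-/- replicate 2 and 67 and 5 reads in the controls. Neither gene passed by limma in any comparison, while DESeq2 called col7a1 lower in compound mutants than in csf1ra-/-.

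Laminin alpha chains (5 genes), which bind cells to the basement membrane, summed to 1.05 and 1.29 in compound mutants, 15.8 and 25.9 in csf1ra-/- and 37.7 and 26.8 in control. The gene lama1 stood at 0.243 and 0.0921 in compound mutants, 4.68 and 8.78 in csf1ra-/- and 10.6 and 4.20 in control. Its csf1ra-/- and control values overlapped (-0.06 between these groups), and both lay above compound mutants (log2 difference -2.74 ± 0.89 against control, SE, limma adjusted p = 0.100). The vascular chain lama4 stood at 0.0809 and 0.0921 in compound mutants, 8.30 and 0.784 in csf1ra-/- and 9.93 and 5.06 in control, and the epithelial chain lama3 had 0 reads in compound mutants, at least 60.4-fold lower than the 4.49 and 11.1 units of control. Laminin gamma chains (3 genes) summed to 0.0809 and 0 in compound mutants, 4.44 and 5.18 in csf1ra-/- and 23.7 and 5.93 in control, so 1 read remained in compound mutants. It belonged to lamc1, the gamma chain of most laminins, which stood at 1.05 and 4.08 in csf1ra-/- and 11.7 and 4.45 in control. Only control libraries carried lamc3 past the filter, so its part in the gamma chain sums supports nothing further.

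The laminin beta chains (5 genes) held lamb4 and lamb2l, both among the 5 exceptions above. They summed to 46.5 and 48.2 in compound mutants, 55.1 and 52.1 in csf1ra-/- and 70.2 and 108 in control. Most of the compound mutant sum came from lamb1a, which encodes the widespread beta 1 chain and stood at 30.1 and 26.2 in compound mutants, 34.8 and 37.5 in csf1ra-/- and 37.1 and 94.7 in control. Its reads there, 372 and 285, were the most of any matrix gene. In compound mutants it averaged 28.2 ± 2.73 against 65.9 ± 40.7 in control (SD, n = 2 each), a log2 difference of -1.05 ± 0.62 (SE) that did not pass (limma adjusted p = 0.290). Without lamb1a the summed signal of the matrix genes was 60.1 and 43.9 units in compound mutants, 274 and 263 in csf1ra-/- and 666 and 522 in control. Its duplicate lamb1b stood at 0.405 and 0.0921 in compound mutants, 4.21 and 0.784 in csf1ra-/- and 11.4 and 5.80 in control.

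The gene lamb4, of the beta 4 chain, stood at 11.7 and 9.67 in compound mutants, 11.1 and 7.21 in csf1ra-/- and 7.75 and 1.73 in control. Both compound mutant libraries were above both controls, the 1 gene of the 64 in which they were, but the difference of 1.25 ± 0.86 (SE, limma adjusted p = 0.362) did not pass. It is the neighbour of lamb1a in the GRCz12tu annotation. The genes lamb2 and lamb2l, also neighbours, were both uneven between the compound mutant libraries, and lamb2l between the controls too. The gene lamb2 stood at 4.29 and 0.0921 in compound mutants, 3.27 and 2.67 in csf1ra-/- and 4.49 and 5.19 in control, and lamb2l at 0.0809 and 12.2 in compound mutants, 1.64 and 3.92 in csf1ra-/- and 9.38 and 0.247 in control. Compound mutant replicate 2 thus had almost all lamb2l reads of its group and replicate 1 almost all of lamb2, and the lamb2l difference of 0.07 ± 1.34 (SE, limma adjusted p = 0.981) has no stable direction across scalings.

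Fibronectin and von Willebrand factor complete the set. Fibronectin links matrix to integrins, and its zebrafish duplicates stood at 0.0809 and 2.67 in compound mutants, 8.54 and 3.14 in csf1ra-/- and 29.8 and 14.1 in control for fn1b, and at 0.243 and 0.184 in compound mutants, 2.81 and 2.98 in csf1ra-/- and 6.80 and 4.94 in control for fn1a. Both had control libraries above all mutant libraries. The log2 differences of compound mutants from control were -3.44 ± 0.96 for fn1b and -2.49 ± 0.80 for fn1a (SE, n = 2 each, limma adjusted p = 0.0807 and 0.0989). The gene vwf, which encodes the clotting glycoprotein made by endothelium and thrombocytes, stood at 0 and 0.276 in compound mutants, 6.90 and 3.61 in csf1ra-/- and 21.6 and 7.16 in control, with a difference of -3.59 ± 0.92 (SE, limma adjusted p = 0.0732). The 2 ceramide transfer genes, which are not matrix genes, were uneven: col4a3bpa stood at 0.162 and 1.47 in compound mutants, 11.7 and 0.627 in csf1ra-/- and 7.21 and 37.3 in control, with the replicates far apart in every group, and col4a3bpb at 2.51 and 0.0921 in compound mutants, 1.05 and 0.157 in csf1ra-/- and 12.4 and 3.21 in control.

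In csf1ra-/- against control, 0 matrix genes passed by limma, as did 0 of all 21316 rows tested (0% higher and 0% lower), and 0 matrix genes passed by edgeR (0.0235% of rows higher and 0.0141% lower). At an unadjusted limma p under 0.05, 9 were lower and 0 higher, against 5.11% and 5.41% of rows. The 9 include col15a1b, col1a1b and col27a1b, which only control libraries carried past the filter, so these support nothing further. DESeq2 called 1, tnc, lower (0.314% of rows lower and 0.807% higher). Fitted differences were below 0 in 52 of the 62 tested genes and above 0 in 10, against 51.2% and 48.8% of rows, with a median of -0.87, against -0.03 over all rows. The 52 and this median include the same genes and lamc3, which also passed the filter through control only. In compound mutants against csf1ra-/-, 0 matrix genes passed by limma, where 0.00938% of rows rose and 0.0141% fell, and 0 by edgeR (0.0235% of rows higher and 0.0422% lower). DESeq2 called 14 lower and 0 higher, against 4.29% and 2.18% of rows. At an unadjusted limma p under 0.05, 13 were lower and 0 higher, against 6.47% of rows in each direction, and 58 of the 62 fitted differences were below 0 (55.7% of rows) and 4 above (43.9% of rows). The median was -1.53 against -0.17 over all rows. The authors' deposited table called 15 of the 64 lower in this comparison and 0 higher (5.66% and 1.99% of all rows), and 0 in csf1ra-/- against control (0.133% of all rows lower and 0.618% higher).

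Other genes of the same biology were read from 3 lists, for which limma passed 0 members in any of the 3 comparisons. Some listed genes reached a signal of 1 only in control libraries, so their lower values in mutants were fixed in advance. These were p3h4 among the collagen-processing genes, fbln1, emilin3a and hapln3 among the glycoproteins, and ddr1, itga6a, itga6l, itga2.3 and itgb3a among the receptors. They are in the counts and medians below and support nothing further. Of 30 tested genes that make and process collagen, 17 had differences below 0 in compound mutants against control, near the share over all rows tested (53.6%). Their median log2 difference was -0.66, against -0.16 over all rows. Their summed signal was 1216 to 1347 in compound mutants, 1159 to 1638 in csf1ra-/- and 625 to 967 in control. Most of it came from loxl2b, p4hb and ppib in each library, so the sum says little of the other genes. The prolyl hydroxylase subunit gene p4ha1b, whose enzyme stabilises the collagen helix, had its highest values in compound mutants, at 12.0 and 24.7 in compound mutants, 3.74 and 5.33 in csf1ra-/- and 1.4962 and 3.95 in control (log2 difference 2.38 ± 0.85 SE against control, limma adjusted p = 0.117). The lysyl oxidase gene loxa, which crosslinks collagen, had 0 and 0 units in compound mutants, 1.52 and 0.314 in csf1ra-/- and 7.21 and 1.36 in control. Of 62 other matrix glycoproteins and proteoglycans, 55 had differences below 0 (53.6% of all rows tested), with a median of -1.71. Their summed signal was 124 to 183 in compound mutants, 230.1 to 230.3 in csf1ra-/- and 285 to 466 in control. By edgeR 1 of these passed, lower (0.699% of rows were). The aggrecan gene acana of cartilage stood at 0.0809 and 0.0921 in compound mutants, 8.42 and 8.16 in csf1ra-/- and 19.9 and 7.16 in control, and the basement membrane organiser agrn at 0.0809 and 0.829 in compound mutants, 6.78 and 10.8 in csf1ra-/- and 22.9 and 5.19 in control, while the small proteoglycan gene bgnb (biglycan) stood at 12.7 and 16.4 in compound mutants, 8.89 and 5.49 in csf1ra-/- and 2.04 and 0.247 in control, above control in compound mutants (log2 difference 2.99 ± 0.87 SE, limma adjusted p = 0.0874). Of 34 matrix receptors, 24 had differences below 0 (53.6% of all rows tested), with a median of -0.87. The fibronectin receptor subunit gene itga5 stood at 0.566 and 0.645 in compound mutants, 29.0 and 0.941 in csf1ra-/- and 27.7 and 22.8 in control, and the hyaluronan receptor gene cd44b at 42.4 and 50.6 in compound mutants, 3.86 and 4.86 in csf1ra-/- and 7.75 and 2.84 in control, with differences of -4.03 ± 1.18 and 3.03 ± 0.75 (SE, limma adjusted p = 0.0880 and 0.0706).

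Markers of endothelial cells, mural cells and fibroblasts, which make matrix, had median differences below 0 in compound mutants against control. Their summed signals did not share 1 pattern across the groups. Endothelial markers, 16 of 25 listed found in the table, summed to 541 to 598 in compound mutants, 623 to 626 in csf1ra-/- and 323 to 805 in control, with fli1b and pecam1 giving most of it. The defining endothelial gene cdh5 stood at 0.0809 and 0 in compound mutants, 4.79 and 1.0978 in csf1ra-/- and 4.62 and 1.61 in control, and kdrl at 3.97 and 0 in compound mutants, 0.702 and 0.314 in csf1ra-/- and 1.90 and 2.72 in control. Of 15 tested endothelial markers, 11 had differences below 0 in compound mutants against control (53.6% of all rows tested). The others, clec14a, fli1b, tie1 and pecam1, lay above 0. Of these, fli1b stood at 206 and 225 in compound mutants, 252 and 247 in csf1ra-/- and 66.5 and 113 in control. Mural cell markers (11 of 17) summed to 46.9 to 57.0 in compound mutants, 68.1 to 158 in csf1ra-/- and 114 to 125 in control, with 1 at 0 reads in both compound mutant libraries, foxf2a. Of 10 tested mural markers, 9 had differences below 0 in compound mutants against control (53.6% of all rows tested). Fibroblast and meningeal markers (11 of 19) summed to 23.3 to 34.3 in compound mutants, 10.3 to 13.017 in csf1ra-/- and 23.3 to 59.8 in control, with 3 at 0 reads in both compound mutant libraries. Some genes, such as dcn and lum, belong both to this list and to that of matrix glycoproteins. Of the defining fibroblast genes, pdgfra stood at 3.40 and 0.0921 in compound mutants, 4.44 and 0.314 in csf1ra-/- and 6.94 and 2.72 in control, and lum at 0 and 0.0921 in compound mutants, 1.05 and 1.57 in csf1ra-/- and 14.3 and 0.123 in control. Of the 11, 7 had differences below 0 in compound mutants against control and 4 above (53.6% and 46.4% of all rows tested). The 7 include fbln1, which reached a signal of 1 only in control libraries and supports nothing further. The largest of the 4 was prrx1a, a mesenchymal transcription factor gene, at 7.20 and 6.08 in compound mutants, 0 and 1.88 in csf1ra-/- and 5.30 and 0.123 in control. The median log2 differences of compound mutants from control were -0.75 for endothelial, -1.73 for mural and -0.94 for fibroblast markers, and limma passed 0 members of these lists. The part of such cells in the matrix differences was not tested.

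Markers of other cells, some of them also named above as sources of matrix, moved in both directions. Cartilage and bone markers (13 of 16) had a median log2 difference of -0.51, skeletal muscle markers (12 of 18) -0.44 with 1 that fell by limma (myhz2), and thrombocyte and red cell markers (8 of 12) -1.43. The cartilage markers acana, matn1, matn4, hapln1a and hapln1b and the thrombocyte marker thbs1b are also in the list of matrix glycoproteins, so these lists are not independent of it. Neuronal markers (15 of 18) had a median of -0.997 and those of epithelium and skin (11 of 12) -0.56. Oligodendrocyte markers (10 of 12) had 2.302, with 3 that rose (cldnk, mpz and plp1b), and radial glia and ependyma markers (15 of 16) -0.04, with 1 that rose (glulb). These limma calls are for compound mutants against control, where 0.793% of all rows tested rose and 0.305% fell. There, 13 of 15 tested neuronal, 6 of 7 thrombocyte and red cell and 8 of 11 epithelial markers lay below 0. So did 7 of 13 cartilage and bone, 7 of 12 muscle, 8 of 14 radial glia and 1 of 10 oligodendrocyte markers (53.6% of all rows tested). The radial glia and ependyma markers summed to 1791 to 2221 in compound mutants, 911 to 1065 in csf1ra-/- and 912 to 2759 in control. Microglial and macrophage markers had a median of 0.24, and 0 passed. Their part in the matrix differences was not tested.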

How the data were processed

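RNA-seq of sorted brain cells was deposited as 1 table for 6 libraries. The authors' signal values are reads divided by a scaled library size. Per the submitters' processing notes HISAT2, edgeR and GRCz10 were used, with versions and the read counter not given in the sources used here. All values were whole multiples of 1 read (100% within 0.001 reads), so reads were recovered for the count tests. Every row had at least 1.02 CPM of total reads in 2 or more libraries, so the table had been filtered on low values before deposit. The authors' deposited log2 fold changes and p-values adjusted as false discovery rates were used only where named. A further 15 columns, of log CPM and rank values, were not used.

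The main test was limma 3.58.1 (R 4.3.3) on log2(signal + 1), with intensity trend, 3 group means, rows at a signal of 1 or more in 2 or more libraries, and Benjamini-Hochberg adjustment over 21316 rows with a threshold of 0.05. Alternatives were edgeR 4.0.16, DESeq2 1.42.0, pseudocounts of 0.25 and 4, other scalings and filters, a replicate block, robust estimation, fits of 4 libraries and leaving out each library. Replicate numbers were not treated as pairs, because the labels do not tie them across groups.

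The genes and lists were chosen with earlier results of these data known. Genes described in detail were hspg2, tnc, fn1a, fn1b and vwf, every gene called, the 12 with the highest group mean, up to 8 genes with the largest differences each way at 20 reads or more (only lamb2l and lamb4 lay above 0), and the highest gene of each family. Others, chosen after their values were seen, complete the families. The name table matched 63 of 64 identifiers. Neighbouring genes were taken from the gene order of the GRCz12tu RefSeq annotation, a later build than the authors', and no coordinates are given; 1 gene is counted but not reported singly.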

Additional observations from a re-analysis of the deposited data

How the results depend on the processing

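In compound mutants against control, 3 matrix genes passed as lower by limma (0.305% of rows tested did). The count was 0 with a pseudocount of 0.25, 0 with only the 4 libraries compared, 8 with at least 50 reads in 2 libraries and 35 by DESeq2 (11.5% of rows). The share of all rows that passed with 50 reads is not given here, so the 8 cannot be set against it. The genes tnc, hspg2 and col6a3 each passed in 9 of 17 settings, with adjusted p-values of 5.35e-06 to 0.175, 5.35e-05 to 0.187 and 2.63e-06 to 0.199. DESeq2 also called 1 gene lower in csf1ra-/- against control (0.314% of rows) and 14 in compound mutants against csf1ra-/- (4.29% of rows).

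With the replicate block 5 genes passed in compound mutants against control, and 0 in the other comparisons. The share of all rows that passed with the block is not given here either. The numbers do not pair the libraries: replicate differences correlated at 0.0122, 0.0180 and 0.00600 between groups.

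The median log2 difference stayed below 0 in every setting. In compound mutants against control it was -3.57 and -1.17 with pseudocounts of 0.25 and 4, -4.79 by edgeR, -4.95 by DESeq2, -2.78 scaled to total reads, -2.74 with 50 reads, and -2.76 to -1.93 with 1 library left out. In csf1ra-/- against control it was -0.51 with a pseudocount of 4, -1.22 by edgeR, -1.24 by DESeq2, -1.33 scaled to total reads, and -1.21 to -0.59 with 1 library left out. In compound mutants against csf1ra-/- it was -2.45 and -0.71 with pseudocounts of 0.25 and 4, -3.26 by edgeR, -3.37 by DESeq2, -1.90 with 50 reads, and -1.59 to -1.31 with 1 library left out. Scaling to total reads moved the median of all rows to -0.70, -0.45 and -0.30 in these comparisons.

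Single genes turned direction. For lamb2l against control, compound mutants had -0.11 with a pseudocount of 0.25, -0.46 scaled to total reads and -0.0796 with median-ratio scaling. For lamb2l in csf1ra-/- the values were -0.17 with a pseudocount of 4, -1.09 by edgeR, -1.07 by DESeq2, -0.46 and -0.15 with the same scalings. Between the mutants lamb2l had -0.47 with a pseudocount of 0.25. With 1 library left out, lamb2l ranged from -1.74 to 1.87 in compound mutants against control, from -1.53 to 1.53 in csf1ra-/- against control and from -1.74 to 1.87 between the mutants. In csf1ra-/- against control the ranges were -1.31 to 0.22 for col12a1b, -1.66 to 0.0192 for col18a1, -0.91 to 0.18 for col2a1b, -1.25 to 0.28 for col4a4, -0.29 to 2.35 for col7a1, -0.96 to 1.95 for col8a1b and -0.64 to 0.52 for lama1. Between the mutants they were -2.90 to 0.0589 for col4a3bpa and -0.0595 to 0.50 for lamb4. The cause of these changes was not tested.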
